A study of Mus musculus with 30 samples.

Results

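In the hippocampus of outbred mice, 36 array probes sorted the animals into separate levels with an empty interval between them, where a typical probe gave a continuous spread. The interval, called the gap below, was the widest step between neighbouring values when the 30 mice were sorted by signal. A probe was taken when its gap exceeded 1 log2 unit and at least 3 mice lay on each side of it. It also had to be detected (detection p under 0.05) on at least 15 of the 30 arrays, and its absolute Pearson correlation with the probe of Aqp1, a water channel of the choroid plexus, had to stay under 0.5. Of 25697 probes on the array, 12588 met the detection rule and 43 of these had such a gap. The Aqp1 limit removed 7, which left 36 probes, 0.286% of those detected, for 34 named genes (Rusc2 has 2 probes) and for 1 probe that the platform annotation does not name (ILMN_1214731). The members were thus chosen by their signals in these same 30 mice, and the gaps are given as a description, without a test. The group labels of the mice were not used.

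The resistant group held 15 male NMRI mice that did not respond to phenytoin, a sodium channel blocker used against epilepsy. The responder group held 15 male NMRI mice that did. All 30 were adults of 12 weeks, all had been phenotyped for this response with 6 Hz stimulation, and no other treatment or genotype is given in the labels. Hippocampi were snap frozen, and the RNA of each mouse was hybridised to 1 single-colour bead array. Because the groups were formed by that outcome, any aftermath of the evoked seizures and the drug response itself cannot be told apart.

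NMRI is an outbred stock, so its members carry different combinations of alleles across the genome. Inherited differences in expression that act on a nearby gene are known to be widespread in mouse brain, and a variant within the stretch that a probe covers can also alter its hybridisation. Each probe reads labelled cRNA bound to an oligonucleotide, so the amount of a transcript and its match to the probe cannot be told apart from the signal of a single probe. Other probes of the same gene and the genes that lie beside it on the chromosome carry information that the signal of the probe itself does not.

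Markers of hippocampal neurons had a mean of at least 8.26 in every mouse. Of 16 listed genes of this kind, 10 were measured, among them Prox1 of the dentate granule cells and Wfs1 of the CA1 field. On the normalised log2 scale the mean was 8.78 ± 0.17 in the 15 resistant mice, against 8.75 ± 0.19 in the 15 responders (SD). Markers of the choroid plexus, a tissue that adjoins the hippocampus, varied far more, and 12 of 17 were measured. Their mean was 7.62 ± 1.32 in resistant mice, against 8.39 ± 1.68 in responders, and single mice ran from 5.51 to 10.14. Between the sides of the gaps described below, the median of this mean differed by more than 1 log2 unit for 17 of the 36 probes, higher above the gap for 7 and higher below it for 10, and its part in the levels was not tested. No such count was made for other divisions of the mice, so the 17 is not shown to be particular to these probes. Choroid plexus values are given below for only some of the 17. Their absence for a probe does not mean that its sides were alike in these markers. The samples are whole tissue, so fewer cells of a type and less RNA per cell cannot be told apart.

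The gaps ran from 1.01 to 3.37 log2 units, with a median of 1.40, and 7 of them exceeded 2. By comparison, the median widest gap of the 12588 detected probes, counted with the same 3 mice on each side, was 0.086. The medians of the upper and the lower level lay 2.30 log2 units apart in the median probe. Spread within a level was small beside this. The median SD was 0.36 within the upper and 0.21 within the lower level, against an SD of 0.20 that the median detected probe showed over all 30 mice.

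The smaller side of the gap held 3 mice for 9 probes, at most 5 mice for 18 probes and at least 8 mice for 14 probes. Fewer mice lay below than above the gap for 23 probes, fewer lay above for 10, and the sides held 15 mice each for 3, the probes of Atg3, Ccng2 and Usp39. The detection rule bears on this balance, since a probe undetected on its whole lower level was kept only with at least 15 mice above its gap. Mice on the upper level were all above the negative controls for each of the 36 probes. On the lower level, all mice were detected for 19 probes, some for 8 and none for 9. For these last 9, the probes of Pdrg1, Brat1, Lefty1, Riok1, Cyp4f14, Poli, Myh8, Zfp235 and the unnamed probe, the lower level was not above background and the difference between levels is a lower bound. The same holds where most lower-level mice were undetected, on the probes with a gap of Mff, Rpl29, Atp2c1, Aqr, Gdpd3 and Hbb-b2, whose lower medians were not above background.

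No probe had 2 gaps above 1, but 7 had a next widest gap above 0.5. In 3 of them it divided the upper level into groups of several mice, so that the probe showed 3 levels. For Brat1, whose product takes part in activating the DNA damage kinase ATM, 13 mice were below the gap, 11 lay between 7.21 and 7.51, and 6 between 8.29 and 8.42 (4 resistant, 2 responder). For Abhd16a, a lipase that acts on phosphatidylserine, 6 mice were below the gap, 20 lay between 9.12 and 9.45, and 4 between 10.26 and 10.46 (2 resistant, 2 responder). For Cops8, a subunit of the COP9 signalosome, 10 mice were below the gap, 16 lay between 9.48 and 9.87, and 4 between 10.51 and 10.73 (2 resistant, 2 responder). The top groups of Brat1, Abhd16a and Cops8 were different sets of mice, although resistant mouse 4 was in those of both Brat1 and Cops8. In Lefty1, Gng8, Hbb-b2 and Mff the next widest gap set apart 1 or 2 mice between the gap and the rest of their level.

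The widest gaps were on probes of Mff and Abhd16a, genes of mitochondria and of lipid metabolism. Mff encodes the mitochondrial fission factor, which recruits the dynamin that divides mitochondria. Its probe (ILMN_2998593) read 4.68 at the lowest, 9.16 at the median and 10.18 at the highest in resistant mice, against 4.67, 9.09 and 9.49 in responder mice. Below the gap, which ran from 5.45 to 8.82, lay 4 resistant and 2 responder mice, and 2 of these 6 were detected. The groups overlapped on both levels.

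The Abhd16a probe (ILMN_2731523) had the next widest gap, 2.98 log2 units. It read 5.20, 9.20 and 10.46 (lowest, median, highest) in resistant mice, against 5.00, 9.30 and 10.42 in responder mice. Each group had 3 mice below and 12 above the gap. Tomm22, a receptor of the import channel in the outer mitochondrial membrane, showed the opposite balance, with few mice on the upper level. Its probe (ILMN_2507182) read 7.04, 7.28 and 9.71 in resistant mice, against 6.94, 7.35 and 9.53 in responder mice. Above the gap from 7.74 to 9.53 lay resistant mice 4, 5 and 7 and responder mouse 12.

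Gdpd3, an enzyme that releases lysophosphatidic acid from lysophospholipids, and Enpp5, a membrane protein of the ectonucleotide pyrophosphatase family, completed this group. The Gdpd3 probe had a gap of 1.34 with 6 mice below it and level medians of 8.11 and 4.94. The Enpp5 probe (ILMN_1217118) had a gap of 1.43 between bright levels with medians of 10.53 and 8.60, and all mice were detected on both. Of its upper-level mice, 8 were resistant and 13 responder.

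Subunits of protein degradation complexes and ubiquitin-related proteins formed another set. The COP9 signalosome removes the ubiquitin-like protein NEDD8 from cullin ligases. The Cops8 probe (ILMN_1218868) read 5.78, 9.64 and 10.58 in resistant mice, against 6.18, 9.74 and 10.73 in responder mice. Below the gap from 6.76 to 9.48 lay 6 resistant and 4 responder mice. The choroid plexus markers had a median of 8.74 in mice above and 6.25 in mice below this gap, with ranges of 5.91 to 10.14 and 5.51 to 9.93, and their part in the Cops8 levels was not tested.

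Psmd8 is a subunit of the regulatory particle that feeds proteins into the proteasome. Its probe (ILMN_2678019) read 7.34, 7.52 and 10.37 in resistant mice, against 7.28, 7.79 and 11.12 in responder mice. Above the gap from 7.79 to 10.00 lay 5 resistant and 7 responder mice. Usp39, a ubiquitin-protease family member without protease activity that acts in the spliceosome, divided the mice into 15 and 15. Its probe (ILMN_1244799) read 5.90, 6.38 and 8.29 in resistant mice, against 6.16, 8.00 and 8.39 in responder mice, and 6 resistant and 9 responder mice were above the gap. Obi1, a ubiquitin ligase of replication origins, had a gap of 1.02 with 3 mice below it, and its correlation with Aqp1 was -0.41. Above and below the Obi1 gap, choroid plexus markers had medians of 8.02 and 8.99, and their part was not tested.

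In the set of ribosome and RNA proteins, Rpl29 stood out by its gap and by its neighbours, which are described further on. It encodes a protein of the large ribosomal subunit. The Rpl29 probe with the gap (ILMN_2730005) read 4.73, 5.02 and 8.13 in resistant mice, against 4.49, 5.38 and 8.16 in responder mice. Above the gap from 5.38 to 7.71 lay 6 resistant and 7 responder mice, all within 7.71 to 8.16, and 2 of the 17 mice below were detected. Rpl29 has near-identical pseudogenes, so which copies a probe reads is uncertain.

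Aqr, an RNA helicase of the spliceosome, read 4.38, 6.66 and 7.24 on its probe (ILMN_2925196) in resistant mice, against 4.39, 6.71 and 7.97 in responder mice. Below its gap of 1.44 lay 5 resistant and 4 responder mice. Riok1, a kinase that acts in maturation of the small ribosomal subunit, had 3 mice below its gap, 1 resistant and 2 responder. Its probe (ILMN_2676512) read 4.58, 6.40 and 7.29 in resistant mice, against 4.52, 6.69 and 7.30 in responder mice. Adat2, the catalytic subunit of an adenosine deaminase of transfer RNA, had 10 mice above a gap of 1.19, 5 from each group. Pnrc2, which promotes mRNA decapping, had 19 mice above a gap of 1.37.

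Genes of membranes, vesicles and transport gave 6 more. Atp2c1 encodes a pump that loads calcium and manganese into the Golgi. Its probe with the gap (ILMN_2658392) read 4.81, 5.32 and 8.09 in resistant mice, against 4.59, 5.38 and 7.73 in responder mice. Above the gap from 5.83 to 7.43 lay 6 resistant and 5 responder mice. Kif3a, a motor subunit of kinesin that carries cargo along microtubules and into cilia, had 7 mice above its gap, 4 resistant and 3 responder. Its probe (ILMN_2621148) read 7.04, 7.38 and 9.62 in resistant mice, against 7.01, 7.39 and 9.74 in responder mice.

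Tmem106b, a lysosomal membrane protein, had only 3 mice below its gap, resistant mice 8 and 10 and responder mouse 5. Its probe (ILMN_1231096) read 5.75, 8.53 and 9.51 in resistant mice, against 5.70, 8.40 and 9.48 in responder mice. Atp6v1d, a stalk subunit of the proton pump that acidifies lysosomes, was detected in every mouse, with medians of 11.86 above and 10.06 below a gap of 1.10. Medians of the choroid plexus markers were 7.71 above and 9.19 below it, and their part was not tested. Its upper level held 13 resistant and 9 responder mice. Atg3, the enzyme that joins LC3 to lipid in autophagy, divided the mice evenly over a gap of 1.30, with 8 resistant and 7 responder mice above it.

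Rusc2, an adaptor protein of vesicle traffic, was the only gene with 2 probes among the 36. Probe ILMN_3159149 read 7.83, 8.58 and 8.77 in resistant mice, against 5.85, 8.16 and 8.72 in responder mice. Probe ILMN_1214953 read 7.60, 8.50 and 8.72 in resistant mice, against 6.09, 8.15 and 8.64 in responder mice. All 15 resistant mice were on the upper level of both probes, and the same 3 mice, responders 2, 8 and 11, were on the lower level of both.

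Among signalling genes, Nfkbiz, a nuclear regulator of inflammatory genes induced in myeloid and epithelial cells, was high in responder mice 5, 11 and 15 and in no resistant mouse. Its probe (ILMN_2755008) read 6.63, 6.82 and 6.98 in resistant mice, against 6.21, 6.99 and 9.17 in responder mice, with a gap from 7.04 to 8.70. Choroid plexus markers had a median of 9.13 in the 3 high mice and 7.81 in the other 27, with ranges of 8.02 to 10.14 and 5.51 to 10.00. For the single markers, the differences of medians between these mice ran from 0.09 for Ttr to 2.01 for Folr1, with Aqp1 at 1.80. The part of the choroid plexus markers in the Nfkbiz levels was not tested. P2ry12, the ADP receptor by which microglia sense injury, was high in 4 mice, resistant 11 and 14 and responder 11 and 14. These 4 read 9.47 to 9.64 and the other 26 read 7.38 to 8.36. The other microglial markers did not follow this division. Cx3cr1 read 8.17 to 8.78 in the 4 mice and 8.36 to 9.28 in the others, Tmem119 7.33 to 7.93 and 6.74 to 7.96, and Aif1 7.57 to 7.78 and 7.46 to 8.12.

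Gng8, a G protein gamma subunit known from sensory and habenular neurons, was high in 4 mice, resistant 6 and 7 and responder 9 and 14, across a gap of 1.53. In these mice the mean of 6 measured markers of thalamus and habenula was 8.99 to 9.63, against 8.49 to 9.25 in the other 26. The choroid plexus markers moved more, with a median of 6.92 in the 4 high mice and 8.70 in the others, and ranges of 6.16 to 10.00 and 5.51 to 10.14. The part of both marker lists in the Gng8 levels was not tested. Lefty1, an antagonist of Nodal signalling in the embryo, had 4 mice below a gap of 1.46. Ccng2, cyclin G2, had its 15 upper-level mice unequally spread, 5 resistant and 10 responder, across a gap of 1.10.

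Genes of DNA repair, transcription factors and genes with main roles outside the brain made up the rest. The Brat1 probe (ILMN_2605630) read 4.51, 7.37 and 8.42 in resistant mice, against 4.46, 7.21 and 8.37 in responder mice. The probe of Pdrg1 (ILMN_1249417), a gene regulated by p53 and DNA damage, read 4.46, 7.64 and 9.31 in resistant mice, against 4.56, 7.49 and 8.83 in responder mice. Both probes were without signal above background on the lower level, which held 13 mice for Brat1 and 4 for Pdrg1. The choroid plexus markers had medians of 8.68 above and 6.48 below the Brat1 gap, and of 8.70 above and 6.97 below the Pdrg1 gap, and their part was not tested. Poli, a translesion DNA polymerase, had 5 mice below a gap of 1.23.

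Zfp365, a zinc finger protein of neural tissue, was bright throughout. Its probe (ILMN_2966034) read 8.47, 8.81 and 11.81 in resistant mice, against 8.41, 8.72 and 12.03 in responder mice, and 5 mice of each group were above the gap from 9.07 to 10.75. Zfp235, a zinc finger gene, and the unnamed probe each had 5 mice below their gaps of 1.04 and 1.16. The choroid plexus markers had medians of 8.73 above and 6.86 below the Zfp235 gap, and 8.73 above and 6.43 below that of the unnamed probe, and their part was not tested. Hmgxb3, an HMG box protein, had 3 mice below a gap of 1.20, all within 8.28 to 8.29.

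Myh8, the myosin heavy chain of perinatal muscle, had 3 mice below its gap, resistant 10 and 11 and responder 11. Its probe (ILMN_1223735) read 4.94, 6.88 and 7.48 in resistant mice, against 4.99, 6.61 and 7.38 in responder mice. The 3 low mice had choroid plexus markers between 8.99 and 10.14, against 5.51 to 10.00 in the others, and this probe's correlation with Aqp1, -0.48, was close to the limit. Cyp4f14, a cytochrome P450 of fatty acid metabolism, had 3 mice below a gap of 1.24. Hbb-b2, an adult beta globin, had 5 mice below a gap of 1.03. In those 5 mice Hbb-bt, another beta globin gene, read 8.46 to 9.54, against 5.33 to 9.33 in the 25 mice above, while the alpha globin Hba-a1 overlapped (12.57 to 13.97 above, 12.67 to 13.64 below). The beta globin genes are near-identical copies, so the assignment of these probes to a copy is uncertain. For single choroid plexus markers, medians above minus below the Hbb-b2 gap ran from -2.07 for Cldn2 to 0.0 for Ttr, and their part was not tested.

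The division of mice was compared between probes of different genes, 629 pairs in all. A pair was called alike to the extent that both probes put a mouse on the same level, whatever the number of mice on each side. Of these pairs, 22 shared a chromosome, and 1 lay within 20 protein-coding genes of each other, Rpl29 and Atp2c1, which are 13 places apart on chromosome 9. Their probes placed 28 of 30 mice alike, the most that sides of 13 and 11 mice allow. All 11 mice high for Atp2c1 were among the 13 mice high for Rpl29, and the exceptions, responders 4 and 13, were high for Rpl29 (7.93 and 8.05) and low for Atp2c1 (5.38 and 4.85). Among the 14 probes with at least 8 mice on each side, the other 90 pairs placed between 8 and 22 mice alike, with a median of 14, and none placed 27 or more alike or opposite. Pairs with fewer mice on a side are not in this count, since uneven sides alone force high numbers alike or opposite. Lefty1 and Myh8, which do not share a chromosome, placed 27 mice alike. Their smaller sides of 4 and 3 mice allow only 23 to 29.

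Of the 19 detected probes of genes within 20 places of Rpl29, 1 separated the mice as Rpl29 did, a probe of Ppm1m, and 2 had medians more than 0.5 apart, those of Atp2c1 and Dusp7. Ppm1m, a protein phosphatase, lies between Atp2c1 and Rpl29, 6 places from Rpl29. Its probe ILMN_3151840 read 7.96 to 8.30 in the 13 mice high for Rpl29, against 7.40 to 7.94 in the 17 mice low for Rpl29. Of 12586 detected probes of other genes, this was the only 1 whose values in these sets of mice did not overlap. The other detected Ppm1m probe overlapped, with medians 0.15 apart. Dusp7, a phosphatase that inactivates the MAP kinase ERK and the gene next to Rpl29 in this order, read 9.34 to 10.23 against 8.53 to 9.84, with medians 0.66 apart.

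Atp2c1, Ppm1m and Dusp7 are the genes around Rpl29 with 1 probe each that differed most between its levels, and their start regions are held in RefSeq (assembly GRCm38.p6), so these regions are shown to give the sequence context of the shared pattern. Each spans 300 bases around a start site on chromosome 9, Atp2c1 at chr9:105521208-105521507 on the minus strand, Ppm1m at chr9:106199184-106199483 on the minus strand and Dusp7 at chr9:106368382-106368681 on the plus strand. Capitals mark the GC box GGGCGG, searched on both strands.
Atp2c1: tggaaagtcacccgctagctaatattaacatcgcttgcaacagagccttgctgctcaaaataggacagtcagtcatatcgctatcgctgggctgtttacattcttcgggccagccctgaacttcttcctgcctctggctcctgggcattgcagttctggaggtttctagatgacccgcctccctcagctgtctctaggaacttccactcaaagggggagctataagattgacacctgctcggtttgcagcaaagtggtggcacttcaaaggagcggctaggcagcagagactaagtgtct
Ppm1m: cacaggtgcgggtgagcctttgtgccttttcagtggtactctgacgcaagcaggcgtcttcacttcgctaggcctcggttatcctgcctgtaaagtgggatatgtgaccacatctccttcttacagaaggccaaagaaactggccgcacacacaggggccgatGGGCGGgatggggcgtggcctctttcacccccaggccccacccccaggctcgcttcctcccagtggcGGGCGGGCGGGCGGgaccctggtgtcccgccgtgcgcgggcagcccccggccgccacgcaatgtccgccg
Dusp7: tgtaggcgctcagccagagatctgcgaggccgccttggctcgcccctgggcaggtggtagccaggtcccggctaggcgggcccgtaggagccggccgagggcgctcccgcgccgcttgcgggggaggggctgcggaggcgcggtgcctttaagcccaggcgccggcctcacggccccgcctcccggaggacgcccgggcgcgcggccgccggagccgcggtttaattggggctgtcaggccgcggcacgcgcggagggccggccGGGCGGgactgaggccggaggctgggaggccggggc

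The GC box, a binding motif of Sp family factors, occurred 0 times in the Atp2c1 region, 4 times in Ppm1m, where 3 of the matches overlap, and 1 time in Dusp7. In all, 35.9% of 27025 RefSeq promoter regions of this length hold it. The CCAAT box was found in Dusp7 alone, against 37.9% of all regions, and TATAAA in none of the 3, against 14.2%. Atp2c1 and Ppm1m each have 2 listed start sites, and the counts cover the 1 region shown for each. No start region of Rpl29 is shown. These matches describe the reference sequence, and the alleles of the mice were not read.

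For the other genes with gaps, the 20 protein-coding genes on either side were read in the same way. A position could be assigned to 34 of the 36 probes, and each had 9 to 38 detected neighbouring probes, 781 in all. The medians above and below the gap differed by more than 0.5 log2 units for 26 neighbouring probes, 3.33%, against 1.24% of all detected probes of other genes taken over all 36 divisions. For 20 probes with a position no neighbour differed by this much. The values did not overlap for 4 of the 781, 0.512%, against 66 of 453120, 0.0146%, over all detected probes. Neighbouring probes share the mice, several read the same gene, and each was counted from every probe with a gap that it lies beside. The Rusc2 probes make the same division beside the same neighbours, and Rpl29 and Atp2c1 count as neighbours of each other. These shares are therefore descriptions.

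The 4 neighbours without overlap were Ppm1m, Mgat3, Zfp93 and Zfp870. Mgat3, which adds the bisecting sugar to N-glycans, lies 14 places from Tomm22. It read 9.10 to 9.33 in the 4 mice high for Tomm22, against 7.84 to 8.60 in the other 26, and was the only detected probe that this division separated. Zfp93, a zinc finger gene 5 places from Zfp235, read 5.22 to 6.75 above and 4.51 to 4.79 below the Zfp235 gap. Zfp870, the gene next to Cyp4f14, read 4.77 to 6.84 above and 4.46 to 4.68 below the Cyp4f14 gap. It was 1 of 3 detected probes of other genes that the Cyp4f14 division separated, and the only neighbour among them. With only 3 to 5 mice on the smaller side and lower values near background for both zinc finger genes, these are separations of few animals.

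Around Usp39, 4 of 37 neighbouring probes differed by more than 0.5. Ptcd3, a mitochondrial ribosome protein 5 places away, had medians 1.26 apart, a difference that ranked 8 in size among 12584 detected probes. Vamp8, a SNARE of vesicle fusion 5 places away on the other side, had medians 1.17 apart, and Thnsl2, a gene of the threonine synthase family 19 places away, had medians 0.91 apart. Their values overlapped between the sides of the Usp39 gap. Srp9, a signal recognition particle protein 13 places from Lefty1, had medians 1.17 apart and also overlapped.

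Other probes of the same genes showed whether a division held across a gene. Of the 34 genes, 12 had another probe on the array and 9 had another detected one, 12 such probes counted from each probe with a gap. The remaining 22 genes had none. A clean division appeared on 3 of the 12, the other probe of Rpl29 and the Rusc2 probes read against each other. Both Rusc2 probes were chosen by the gap rule in these same mice, and their entries are the same comparison read in both directions. The other Rpl29 probe was thus the only one with a clean division that the rule had not chosen. The Rpl29 probe ILMN_2857570, a bright one, read 11.03 to 11.29 in the 13 mice above, against 10.27 to 10.75 in the 17 mice below. Its level difference was 0.62, against at least 3.05 on the probe with the gap.

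In the other 7 genes the values overlapped. The bright Mff probe ILMN_2732961 read 9.63 to 10.09 in the 24 mice above, against 9.57 to 9.82 in the 6 mice below, with medians 0.064 apart, against at least 4.27 on the probe with the gap. The other Atp2c1 probe ILMN_1252963 read 5.72 to 6.64 above and 5.87 to 6.73 below, with medians 0.0088 apart, against at least 2.53 on the probe with the gap. Mff and Atp2c1 thus each had a probe with separate levels and a probe without them.

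The other Usp39 probes, 3 of them, lay higher in the upper-level mice by 0.12 to 0.18, against 1.79 on the probe with the gap. Kif3a overlapped with medians 0.48 apart, and Aqr with medians 0.40 apart. For Riok1 the other probe was lower by 0.18 in the upper-level mice. For Myh8 the other probe (ILMN_2978038) was higher by 0.91 in the upper-level mice, and 1 of the 3 low mice exceeded the lowest of the others. Another 7 probes of these genes did not meet the detection rule, 5 of which were detected on no array.

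The comparison of the groups asked whether mice resistant to the drug stood on other levels than responders. It used the limma fit over all 12588 detected probes. Of the 36 probes, 0 passed an adjusted p of 0.05, a threshold that 0.00794% of all probes passed. At an unadjusted p under 0.05 there were 2 of 36, or 5.56%, both of Rusc2 and both higher in resistant mice, where 7.55% of all probes passed (4.25% higher and 3.3% lower in resistant mice). Of the 36, 18 were higher and 18 lower in resistant mice, and the median log2 difference was 0.0018, against 0.0070 over all probes. The size of the difference was larger than for a typical probe, a median of 0.20 against 0.053, and so was its error, a median SE of 0.33 against 0.073. The gap rule chose probes with a wide spread over the mice, which by itself makes both values larger.

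Rusc2 probe ILMN_3159149 averaged 8.50 ± 0.28 over the 15 resistant mice, against 7.78 ± 1.00 over the 15 responders (SD). Resistant minus responder gave 0.72 log2 units (SE 0.25), with an unadjusted p of 0.00667 and an adjusted p of 0.476 in limma. The other Rusc2 probe averaged 8.39 ± 0.31 in resistant mice, against 7.81 ± 0.89 in responders, a log2 difference of 0.59 (SE 0.22, unadjusted p = 0.0128, limma adjusted p = 0.55). Both probes share the 3 low responders, so they are not independent. In these 3 mice the mean of 11 measured oligodendrocyte markers was 9.59 to 10.27, against 9.87 to 10.93 in the other 27. The choroid plexus markers moved more, with a median of 9.73 in the 3 low mice and 8.02 in the other 27, and ranges of 6.32 to 10.14 and 5.51 to 10.00. For single choroid plexus markers, upper minus lower medians ran from -2.94 for Folr1 to 0.0 for Ttr, with Aqp1 at -2.58. The part of both marker lists in the Rusc2 levels was not tested.

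The number of upper-level mice differed between the groups by at most 1 for 22 probes and at most 2 for 28. It differed by at least 3 for 8 probes, those of Nfkbiz, Rusc2, Enpp5, Ccng2, Atp6v1d, Zfp235 and Usp39. None of the single-probe genes among these passed the unadjusted threshold. Ccng2 differed by -0.63 log2 units (SE 0.38) with an adjusted p of 0.738 in limma, and Enpp5 by -0.58 (SE 0.33) with an adjusted p of 0.721. For Nfkbiz it was -0.39 (95% interval -0.86 to 0.09, limma adjusted p = 0.738), for Usp39 -0.51 (95% interval -1.13 to 0.11), and for Atp6v1d 0.46 (95% interval -0.15 to 1.07). Intervals of this width do not show that the groups were alike.

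At the boundary of the rule, the narrowest gaps taken were those of Usp39 (1.01), Obi1 (1.02) and Hbb-b2 (1.03). The widest left out were those of Frmpd4, a synaptic scaffold protein, and Med18, a subunit of Mediator (0.98 each), and of Mul1, which ubiquitinates proteins at the mitochondrial surface (0.96). Frmpd4 and Med18 each had 12 resistant and 13 responder mice above their gaps. Mul1 had 11 resistant and 2 responder mice above its gap, and its log2 difference of 0.98 (SE 0.22) was larger than that of any of the 36, with a limma adjusted p of 0.163.

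Listed genes were counted among the 36 probes, which are 0.286% of all detected ones. Of 41 genes with copy number or structural alleles known to differ among mouse strains, 7 were detected, and 1, Hbb-b2, was among the 36 probes. Of 32 genes of the major histocompatibility complex, 14 were detected and 0 were among them. Of 9 measured markers of microglia and blood, P2ry12 was the only member. Other markers of brain regions and cell types, including the 12 of choroid plexus, contributed none, although 4 of the choroid plexus genes had gaps above 1 and were removed by the limit on correlation with Aqp1.

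For 32 probes whose sides differed in size, with Rusc2 counted 1 time, mice stood on the smaller side 3 to 11 times in the resistant group, with a median of 6, and 4 to 10 times in the responder group, with a median of 7. Over the 13 probes with at most 4 mice on the smaller side, responder mouse 11 was on it for 5 probes, the highest number. Resistant mouse 10 and responder mouse 14 followed with 4 each, and 3 resistant and 2 responder mice were on it for 0 of the 13.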

How the data were processed

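Hippocampal RNA of 30 mice, 15 resistant and 15 responder by the labels, was read on single-colour Illumina bead arrays, 1 per mouse. The authors deposited log2 signals that are named as not normalised, a detection p-value for each probe and array, and processed log2 values. Per the submitters' processing notes, the tools included lumi. The processed log2 values deposited by the authors equalled a quantile normalisation of the unprocessed ones to within 6e-09. Array medians before normalisation ran from 7.06 to 7.38, and the number of arrays limits the precision.

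Here the signals were returned to the linear scale, corrected and normalised with neqc (offset 16, background from the detection p-values) in limma 3.58.1 under R 4.3.3, and probes with a detection p under 0.05 on at least 15 arrays were kept (12588). Gene names came from the platform annotation, which named 23978 of 25697 probes, and 23962 matched RefSeq assembly GRCm38.p6, used for gene order and promoter sequences. Resistant and responder mice were compared over all 30 arrays in limma (a linear model, then eBayes with its trend option), with Benjamini-Hochberg adjustment over the kept probes. Nothing in the labels says how the mice were related, so p-values measure the spread between these samples. Levels, other probes, neighbours and mouse patterns were described without a test, since the signals chose the probes.

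Every annotated gene of the 36 probes is named, and the 7 probes removed by the Aqp1 limit are not listed. Values by group are given for the 12 widest gaps, for probes at an unadjusted p under 0.05, for genes with another kept probe and for neighbouring genes that placed at least 27 mice alike, with 3 probes on either side of the gap threshold. The probes, the gene lists and these choices were made with earlier results of these data known. The gap scan and the fit were tested on simulated data. For the scan, the simulated levels lay further apart than those of the median probe with a gap, and the simulated spread was capped. That test therefore does not show how the scan performs on narrower gaps or wider spreads. The alternatives were other background corrections, scalings, offsets, filters, gap sizes, mouse minimums and Aqp1 limits, array weights, a replicate block, other distances between genes, and each mouse left out.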

Additional observations from a re-analysis of the deposited data

How the results depend on the processing

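The number of probes depends on how low signals are treated. Without background correction 12 probes met the rule, with the authors' processed values 12, with the strict filter (detection p under 0.01 on all arrays) 17, with an offset of 50 in neqc 23, with a gap over 1.5 15 and with at least 5 mice on each side 22, in place of 36, and each of these sets lies within the 36. Leaving out each mouse in turn gave 32 to 39 probes, at least 32 of them shared with the 36. The other alternatives gave 31 to 52. The Rpl29 and Atp2c1 probes placed 28 mice alike under each of 4 alternatives chosen after seeing the data, and the other Rpl29 probe stayed separate. Without background correction and with the authors' processed values, the signals are the same to within rounding. Those 2 settings are therefore 1 alternative, here and in the number of probes. Of the 2 pairs within 50 places 1 shared its mice, and the 0 within 5 places only reflects that no pair lies so close.

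Over all probes, 1 passed the adjusted threshold between resistant and responder mice (951 at an unadjusted p under 0.05), 0 without a filter, and 0 to 2 with each mouse left out, 0 in 15 of the 30 cases. Of the 36, 2 to 4 were at an unadjusted p under 0.05 with each mouse left out, 4 without resistant mouse 6 (Enpp5 and Atp6v1d added) and without responder mouse 6 (Enpp5 and Ccng2 added). With the replicate number as a block, 0 of all probes passed and 4 of the 36 were at an unadjusted p under 0.05, Ccng2 and Usp39 being added. Equal numbers were not taken to pair the mice, since the labels do not say that they do. Of 15 number pairs, 8 correlated above 0.1 (12 above 0, from -0.32 to 0.28), and 5 of 30 mice correlated best with their own number. Mice of equal number also have consecutive sample numbers. These values do not exclude that such mice share a step of handling, and this was not tested. Numbers 11 and 14, with the highest correlations, are those of the 4 mice high for P2ry12. No alternative brought any of the 36 past the adjusted threshold, and the adjusted p of the Rusc2 probes lay between 0.341 and 0.748.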
